A study of Mus musculus with 2 samples.

Results

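The genes described here encode cytosolic translation factors and a few ribosomal proteins of mouse embryonic stem (ES) cells. They were chosen by symbol: names of ribosomal proteins of the large and small subunit (Rpl, Rps, Rplp0 to Rplp2 and Rpsa), of initiation factors (Eif1 to Eif6) and of elongation factors (Eef1 and Eef2), with names holding -ps dropped. The rule found 69 of the 14261 rows of the expression table: 54 initiation factor genes, 10 elongation factor genes and 5 ribosomal protein genes. The ribosomal protein rows were Rplp0, Rplp1, Rplp2, Rpsa and Rpl6l, and other Rpl and Rps genes were not analysed here. The members are therefore translation factors for the most part, and they say little about the ribosome itself. Rpl6l is annotated in GENCODE as a processed pseudogene.

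The study has 2 RNA-seq libraries of a mouse ES cell culture labelled TRE-ESC, kept in suspension in low-adsorption dishes in N2B27 medium to which LIF, a cytokine, and the kinase inhibitor pair called 2i were added. One library came from a culture given doxycycline (dox), a drug that switches tetracycline-controlled transgenes, and the other from a culture with no dox, both labelled 36 h. The labels name neither the promoter of the transgene nor the clone, nor whether cultures were pooled. With 1 library per group there is no test, no p-value and no spread between cultures, and every ratio is a description of these 2 libraries. The values are whole numbers on a normalized scale, and the sequencing depth behind them is unknown. A pseudocount of 10 was put on both values before a ratio was taken, so differences of low genes are understated, and a gene counted as measured where the larger of its values was at least 50. By that floor 64 of the 69 members were measured, among 8547 genes in all. Jun stood at 3821 with dox and at 55 without.

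Translation starts when eIF2, loaded with GTP and initiator tRNA, joins the small ribosomal subunit together with eIF1, eIF1A and the large complex eIF3, while eIF4F binds the capped messenger RNA and unwinds its leader. eIF2B recharges eIF2 with GTP, and phosphorylation of the alpha subunit of eIF2 by stress kinases blocks that step. eEF1A then brings each aminoacyl-tRNA to the ribosome and eEF2 moves the ribosome along the message. ES cells are known to hold global translation low in comparison with the cells they differentiate into.

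The translation genes differed little between the libraries. Of the 64 measured members 60 were within 2-fold, which is 93.8%, against 85.3% of all measured genes. Those at least 2-fold higher with dox were Eif4g3 and Eef2k, so 2 of 64, where 9.23% of all measured genes were called in that direction. Those at least 2-fold lower with dox were Eif2s2 and Eef2kmt, again 2 of 64, where the background was 5.49%. At 1.5-fold 3 members were higher and 8 lower, with backgrounds of 16.7% and 17.7%. The members and all genes were not matched for level of value. Of the 64 members 49 had a larger value of at least 250. The upper quartile of all rows, with those under the floor included, was 184 in each library. These figures cover unlike sets of genes and are not a direct comparison. Whether other genes of like value differed as little was not tested. Most differences were small and downward: 42 members had a smaller value with dox, 18 a larger one and 4 the same value (over all 69 rows, with no floor, 44, 20 and 5), whereas 54.9% of all measured genes had a smaller value and 44.1% a larger one. The median log2 ratio of the members was −0.13, beside −0.08 for all measured genes. With the trend of the log2 ratio on transcript length removed, as described below, 33 members were on the larger side and 31 on the smaller, and the median was 0.02.

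**Figure D1:**
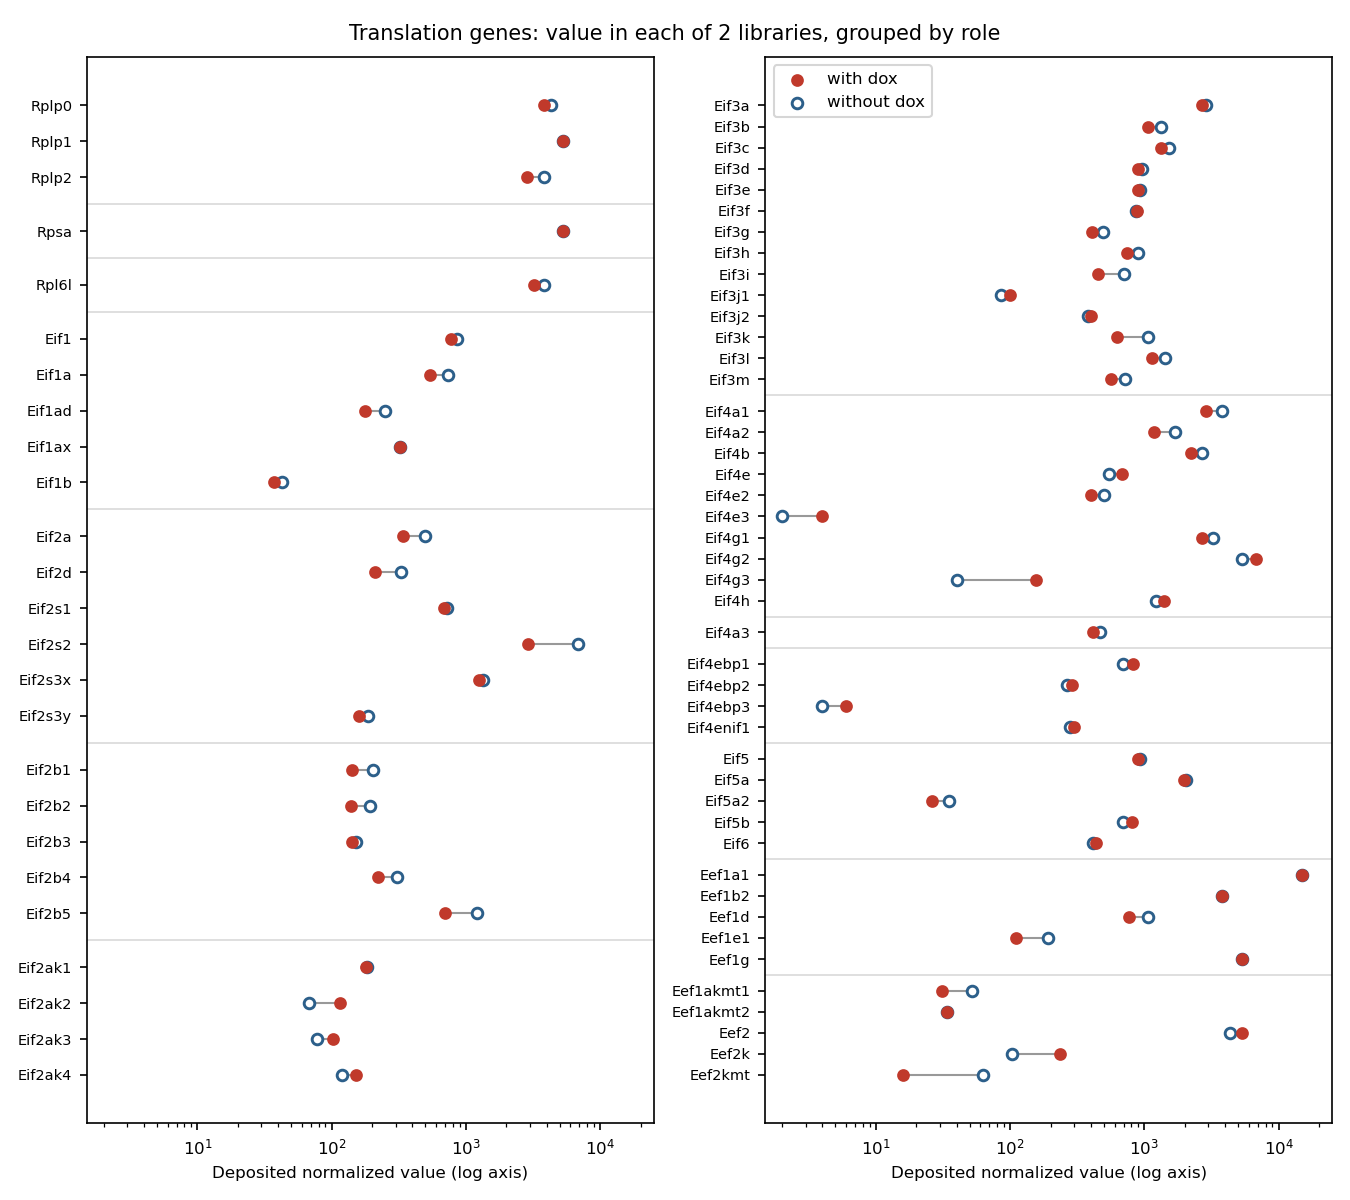
Value of each of the 69 members in the library with dox (filled) and the library without dox (open), on a log axis in the deposited normalized unit, grouped by role and 1 point per library. Most pairs of points nearly overlap, and the widest gaps among measured members are those of Eif4g3, Eef2kmt, Eif2s2 and Eef2k.

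**Figure D2:**
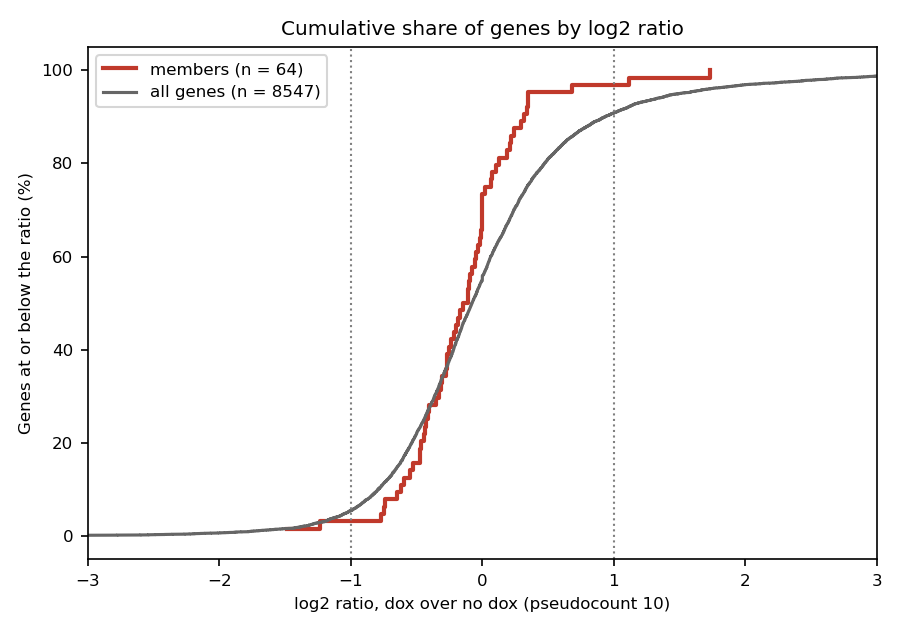
Cumulative share of genes (%) by log2 ratio of dox over no dox, for the 64 measured members and all 8547 measured genes, with dotted lines at 2-fold. The curve of the members is steeper, with 93.8% of them between the dotted lines against 85.3% of all genes. The groups were not matched for level of value.

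The genomic sequence around the start sites of the 4 members past 2-fold is shown because they carry the largest differences and because the protein made from Jun works as part of AP-1, a transcription factor. The sequences are from RefSeq on the build GRCm38.p6 and run from 80 bases before the annotated start to 20 bases after it, 5′ to 3′ on the strand of the gene. They cover chr2:154892887-154892986 on the minus strand for Eif2s2, chr16:5255937-5256036 on the minus strand for Eef2kmt, chr7:120842751-120842850 on the plus strand for Eef2k, at the most upstream of its 3 listed starts, and chr4:137993375-137993474 on the plus strand for Eif4g3, at the more upstream of its 2.
Eif2s2: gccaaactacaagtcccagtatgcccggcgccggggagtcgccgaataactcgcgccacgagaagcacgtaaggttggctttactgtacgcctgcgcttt
Eef2kmt: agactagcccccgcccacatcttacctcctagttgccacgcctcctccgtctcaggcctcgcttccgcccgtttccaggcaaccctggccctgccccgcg
Eef2k: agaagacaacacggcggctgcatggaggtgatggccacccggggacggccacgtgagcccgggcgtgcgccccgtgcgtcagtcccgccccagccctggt
Eif4g3: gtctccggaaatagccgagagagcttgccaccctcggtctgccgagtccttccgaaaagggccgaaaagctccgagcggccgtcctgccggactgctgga
None of the windows from 250 bases before to 50 after the starts of these 4 genes held the AP-1 motif TGANTCA or the related cyclic AMP response element TGACGTCA on either strand, which says only that these letters are not in these windows.

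Of the 53 members found in the promoter table, 5 held TGANTCA, which is 9.43%, against 8.97% of 27025 gene symbols in the table and 5.54% of the 6693 measured genes found there. The members were Eif1, Eif2ak3, Eif3f, Eif3j1 and Eif3l. TGACGTCA was found in 1 member, Eef2, which is 1.89%, against 2.03% of all symbols and 4.05% of measured genes. Both motifs read the same on either strand apart from the middle base of the first, and they do not overlap in these promoters. The stretches with a match are printed with the motif in capitals, except that of Eif3j1, and none runs further than 30 bases past the start. They lie on the plus strand at chr11:100319765-100319825 for Eif1, chr6:70844303-70844363 for Eif2ak3, chr7:108934315-108934375 for Eif3f, chr15:79074973-79075008 for Eif3l and chr10:81176606-81176660 for Eef2.
Eif1: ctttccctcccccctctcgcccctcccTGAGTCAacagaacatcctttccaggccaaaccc
Eif2ak3: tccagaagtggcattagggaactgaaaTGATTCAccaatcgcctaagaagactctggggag
Eif3f: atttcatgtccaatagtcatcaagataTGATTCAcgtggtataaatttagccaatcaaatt
Eif3l: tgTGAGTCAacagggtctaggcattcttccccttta
Eef2: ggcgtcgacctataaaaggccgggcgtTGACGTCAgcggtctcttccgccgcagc
All 6 genes with a match were within 2-fold, as were 93.8% of measured members and 85.3% of all measured genes. This count therefore does not set them apart. Their log2 ratios were −0.15 for Eif1, 0.35 for Eif2ak3, 0.02 for Eif3f, 0.21 for Eif3j1, −0.31 for Eif3l and 0.29 for Eef2.

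The widest gap upward was that of Eif4g3, which encodes eIF4GII, a scaffold of the cap-binding complex eIF4F that holds together the cap-binding protein, the helicase and eIF3. It stood at 156 with dox and at 40 without, 3.32-fold higher, a log2 ratio of 1.73 at percentile 96.0 of all measured genes. Eif4g3 spans positions 137993022 to 138208508 of chromosome 4, plus strand, in GRCm38, and none of the 75-base windows of its longest coding transcript occurs in a transcript of another gene. Its value without dox was below the floor, so it was measured through the library with dox alone. Its paralogue Eif4g1, the more widely studied scaffold eIF4GI, stood at 2675 with dox and at 3241 without, a log2 ratio of −0.28, so the ratios of the 2 scaffolds differed by 2.01 on the log2 scale. Eif4g2, whose product DAP5 is a relative that lacks the site for the cap-binding protein, stood at 6787 with dox and at 5343 without. The library with dox was thus higher for Eif4g3 and Eif4g2 and lower for Eif4g1.

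Among the other eIF4F genes, Eif4e, which encodes the cap-binding protein, stood at 682 with dox and at 545 without, a log2 ratio of 0.32. Eif4e2, the gene of a cap-binding homologue known as a translational repressor, stood at 403 with dox and 500 without. The third homologue, Eif4e3, was under the floor at 4 with dox and 2 without. The helicase gene Eif4a1 stood at 2865 with dox and at 3819 without, and its paralogue Eif4a2 at 1178 with dox and 1706 without. Both helicase genes were lower with dox by a similar amount, with log2 ratios of −0.41 and −0.53. Of the 75-base windows of Eif4a1, 62.9% also occur in another gene's transcript, mostly a processed pseudogene, so its value is uncertain. The helicase cofactor genes Eif4b and Eif4h went opposite ways, at 2220 with dox and 2672 without and at 1395 with dox and 1225 without. Over the 9 measured genes of this role 4 had a larger value with dox and 5 a smaller one, and the median log2 ratio was −0.27. Eif4a3, a helicase gene of the same family whose product belongs to the exon junction complex, stood at 414 with dox and 468 without.

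The genes whose products hold eIF4E back all had slightly larger values with dox. Eif4ebp1, which encodes an eIF4E-binding protein released by mTORC1 phosphorylation, stood at 817 with dox and at 691 without. Eif4ebp2 stood at 291 with dox and 265 without, and Eif4enif1, the gene of the nuclear carrier 4E-T, at 300 with dox and 279 without. The log2 ratios of these 3 lay between 0.10 and 0.24, well within 2-fold, and Eif4ebp3 was under the floor at 6 with dox and 4 without. With the length trend removed all 3 measured genes stayed on the larger side.

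Eif2s2, which encodes the beta subunit of eIF2, had the largest drop in value of any member. It stood at 2884 with dox and at 6787 without, 2.35-fold lower, a log2 ratio of −1.23 at percentile 2.92 of all measured genes. Eif2s2 spans positions 154871410 to 154892935 of chromosome 2, minus strand, in GRCm38. Of its 75-base windows 22.4% also occur in the processed pseudogene Gm9892. The other eIF2 subunits stood close together between the libraries: Eif2s1, of the alpha subunit that the stress kinases phosphorylate, at 687 with dox and 725 without, and Eif2s3x, of the gamma subunit, at 1249 with dox and 1337 without. Eif2s3y, the Y-linked copy of the gamma subunit gene, stood at 160 with dox and at 187 without. The log2 ratios of these 3 lay between −0.21 and −0.08, so the subunits of eIF2 did not share the ratio of Eif2s2. Eif2a and Eif2d, which encode factors that can bring initiator tRNA without eIF2, had smaller values with dox. Eif2a stood at 338 with dox and 499 without, a log2 ratio of −0.55, and Eif2d at 209 with dox and 327 without, a log2 ratio of −0.62.

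All 5 eIF2B genes had smaller values with dox, and none passed 2-fold. Over all measured genes 54.9% had a smaller value with dox and 14.7% passed 2-fold in either direction. None past 2-fold among 5 genes therefore does not set them apart. Eif2b5, of the catalytic epsilon subunit, stood at 705 with dox and at 1210 without, a log2 ratio of −0.77, the closest to the 2-fold limit among members within it. The regulatory subunit genes Eif2b1, at 143 with dox and 203 without, Eif2b2, at 139 with dox and 192 without, and Eif2b4, at 221 with dox and 305 without, had log2 ratios between −0.48 and −0.44. Eif2b3, of the gamma subunit, stood at 141 with dox and 153 without. The median of the 5 was −0.45, and −0.22 with the length trend removed, with all 5 on the smaller side in both forms.

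The genes of the kinases that phosphorylate eIF2 alpha lay on the other side. Eif2ak2, which encodes the double-stranded RNA sensor PKR, stood at 115 with dox and at 68 without, a log2 ratio of 0.68. Eif2ak3, of the endoplasmic reticulum kinase PERK, stood at 102 with dox and 78 without, and Eif2ak4, of the amino acid sensor GCN2, at 153 with dox and 119 without. Eif2ak1, of the heme-regulated kinase HRI, stood at 180 with dox and 182 without. None of the 4 passed 2-fold, their median log2 ratio was 0.34, and with the length trend removed all 4 were on the larger side. From the list of other translation genes, the 5 measured genes of eIF2 phosphatase subunits and stress kinase partners also had larger values with dox, with a median of 0.28. Among them Ppp1r15a, which encodes the inducible phosphatase subunit GADD34, stood at 177 with dox and 128 without, and Gcn1l1, of the GCN2 activator, at 787 with dox and 663 without. The eIF2B genes thus had smaller values with dox and those of the eIF2 kinases and phosphatase mostly larger ones, all by less than 2-fold. The 6 genes of the eIF2 role, with Eif2a and Eif2d, also had smaller values, but Eif2s1 and Eif2s3x were nearly level. With the length trend removed Eif2s1 was at 0.027 and Eif2s3x at −0.0057, and 5 of the 6 were on the smaller side. Over all measured genes 54.9% had a smaller value with dox and 44.1% a larger one, and 14.7% passed 2-fold in either direction.

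**Figure D3:**
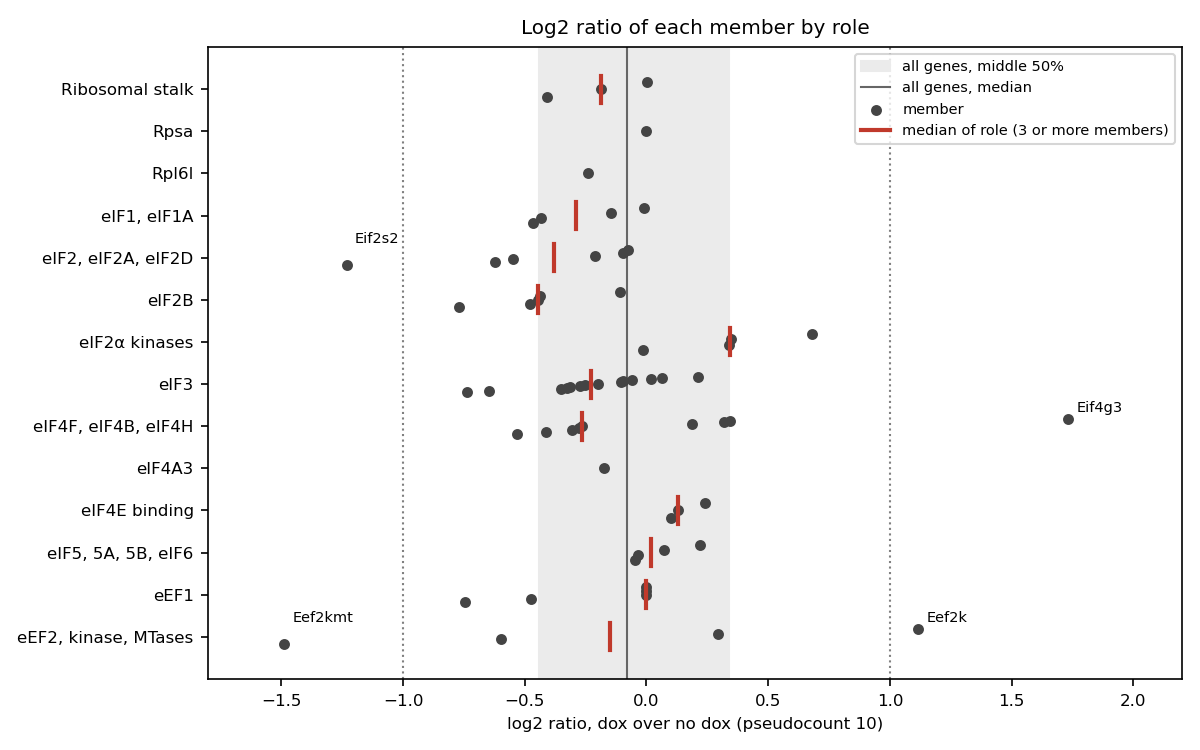
Log2 ratio of dox over no dox for each of the 64 measured members (points), by role, with the median of each role of 3 or more members (bar), the middle 50% of all genes (grey band) and the median of all genes (line), and dotted lines at 2-fold. The 5 eIF2B genes lie left of the median of all genes and the eIF2 alpha kinases right of it, while Eif4g3, Eef2k, Eif2s2 and Eef2kmt lie past the dotted lines.

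eIF3, the large scaffold of the initiating small subunit, was measured through all 14 of its listed genes, and 0 of them passed 2-fold. Of these 11 had a smaller value with dox and 3 a larger one. Their median log2 ratio was −0.23, with a range from −0.74 to 0.21. Over all measured genes 14.7% passed 2-fold in either direction, 54.9% had a smaller value with dox and 44.1% a larger one. Whether eIF3 differed from other genes in these counts was not tested. The lowest ratios in eIF3 were those of Eif3k, at 631 with dox and 1059 without, and of Eif3i, at 450 with dox and 710 without. Eif3a, of the largest core subunit, stood at 2679 with dox and at 2884 without, and Eif3c, another core subunit gene, at 1334 with dox and 1533 without. Eif3b stood at 1059 with dox and 1331 without, Eif3l at 1138 with dox and 1418 without, and Eif3m at 563 with dox and 720 without. Eif3d stood at 900 with dox and 964 without, Eif3e at 892 with dox and 929 without, Eif3g at 408 with dox and 488 without, and Eif3h at 737 with dox and 892 without. Eif3f was nearly level at 876 with dox and 864 without. Eif3j1 and Eif3j2, copies of the gene of a loosely bound subunit, stood at 100 with dox and 85 without and at 400 with dox and 382 without. Most windows of Eif3j2, 87.4%, also occur in transcripts of other genes, chiefly Eif3j1, so these 2 values cannot be told apart with confidence. With the length trend removed 6 of the 14 eIF3 genes were on the larger side and 8 on the smaller, with a median of −0.05.

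The start codon selection factors eIF1 and eIF1A had smaller values with dox, by little. Eif1 stood at 779 with dox and at 864 without, and its paralogue Eif1b, under the floor, at 37 with dox and 43 without. Eif1a, the copy of the eIF1A gene outside the X chromosome, stood at 543 with dox and at 736 without, a log2 ratio of −0.43, whereas the X-linked Eif1ax stood at 321 with dox and 323 without. Eif1ad, which encodes a protein with a domain like that of eIF1A, stood at 177 with dox and 248 without. With the length trend removed Eif1 was on the larger side, at 0.20, and 3 of the 4 measured genes of this role were on the smaller. Later initiation factors were nearly level apart from Eif5b, which was slightly larger with dox. Eif5, of the GTPase activator of eIF2, stood at 904 with dox and 925 without. Eif5b, of the subunit joining GTPase, stood at 807 with dox and 692 without. Eif6, of a factor that keeps the large subunit apart, stood at 436 with dox and 414 without. Eif5a, whose hypusinated product helps at difficult peptide bonds, stood at 1990 with dox and 2058 without, and its paralogue Eif5a2 was under the floor at 26 with dox and 35 without. In this last group the log2 ratios of the 4 measured genes lay between −0.05 and 0.22. With the length trend removed all 4 were on the larger side, with a median of 0.16.

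The elongation factor eEF2 and the gene of its kinase both had larger values with dox. Eef2k encodes the calcium and calmodulin dependent kinase that phosphorylates and inhibits eEF2. It stood at 235 with dox and at 103 without, 2.17-fold higher, a log2 ratio of 1.12 at percentile 92.2 of all measured genes, and spans positions 120842831 to 120907450 of chromosome 7, plus strand, in GRCm38. Its log2 ratio became 0.90 under a pseudocount of 50 and 0.98 with the length trend removed, so its call depended on these settings. Eef2 itself stood at 5331 with dox and at 4346 without, a log2 ratio of 0.29. Eef2kmt, which encodes a lysine methyltransferase of eEF2, had the lowest log2 ratio of any member, −1.49, at 16 with dox and at 63 without, 2.81-fold lower. It spans positions 5244152 to 5255983 of chromosome 16, minus strand, and overlaps Alg1 on the other strand, with 19.1% of its windows also in Alg1 transcripts. Its value with dox was below the floor, and a pseudocount of 50 gave it a log2 ratio of −0.78.

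The eEF1 genes included 3 of the 4 measured members with equal values. Eef1a1, of the factor that carries aminoacyl-tRNA, stood at 14907 in both libraries, the highest value in the table, which 10 genes shared in each library. Eef1b2, at 3821, and Eef1g, at 5332, which encode subunits of the exchange factor of eEF1A, were also equal in both. All 3 lay in the fixed sets near the top of the table, as described below. Equal values there mean the same set and need not mean equal RNA. Of the windows of Eef1g 56.5% also occur in transcripts of other genes, chiefly a processed pseudogene. The share was 41.7% for Eef1a1 and 2.95% for Eef1b2, so the values of Eef1g and Eef1a1 are uncertain for this reason too. Eef1d, the gene of the delta subunit of the exchange factor, was lower with dox at 769, against 1071 without. Eef1e1, whose product is an auxiliary part of the multi-tRNA synthetase complex, stood at 111 with dox and at 193 without, a log2 ratio of −0.75. The methyltransferase genes of eEF1A stood at 31 with dox and 52 without for Eef1akmt1 and at 34 in both libraries for Eef1akmt2. Over the 9 measured elongation factor genes the median was 0.00, and 4 were smaller with dox, 2 larger and 3 equal.

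The ribosomal protein rows were all within 2-fold, as were 85.3% of all measured genes. All of them lay near the top of the table, where values come in fixed sets, as described below. Equal or nearly equal values there mean the same set and need not mean equal RNA. Rplp1, of an acidic protein of the stalk that recruits elongation factors, stood at 5326 with dox and at 5325 without. Rplp0, of the base of the stalk, stood at 3819 with dox and 4343 without, and Rplp2 at 2876 with dox and 3823 without, with log2 ratios of −0.19 and −0.41. Rpsa, which encodes a protein of the small subunit also known as the laminin receptor, stood at 5327 in both. Rpl6l stood at 3230 with dox and at 3818 without, and 69.4% of its windows also occur in other transcripts, chiefly those of Rpl6. With the length trend removed Rplp0 was at 0.16, Rpl6l at 0.17 and Rplp2 at −0.0086, so 2 of these 3 changed sides. The windows shared with other genes came to 45.9% for Rplp1, chiefly with Gm10073, annotated as protein coding, 39.7% for Rpsa and 27.4% for Rplp0, both most often with a processed pseudogene, and 23.2% for Rplp2, with Wdr89. Reads from such windows cannot be told apart from those of the other gene.

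Values near the top of the table come in fixed sets that are the same in both libraries. Set 1 is made of 10 genes at 14907, set 2 of 10 genes between 6778 and 6787, and set 3 of 10 genes between 5325 and 5344. A gene there moves by whole sets. A step between sets 1 and 2 is worth 1.13 on the log2 scale, between sets 2 and 3 0.34, and between sets 3 and 4 0.29. Of the members 15 lay in the 10 highest sets of at least 1 library, and 14 in those of both. Of these 14, 5 were in the same set in both libraries: Eef1a1, Rpsa, Rplp1, Eef1g and Eef1b2. Eif4g2 was in set 2 with dox and 3 without, and Eef2 in set 3 with dox and 4 without, so each differed by 1 set. Eif2s2 was in set 8 with dox and in set 2 without, the largest shift among the members in these sets. Pabpc1, of the cytoplasmic poly(A)-binding protein and no member by name, stood at 14907 with dox and at 6787 without, a 2.19-fold difference that is 1 set. Lars2 and the noncoding Gm42418, known to collect reads of ribosomal RNA, left the first set, at 646 with dox and 14907 without and at 1393 with dox and 14907 without. Their part in these shifts was not tested.

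**Figure D4:**
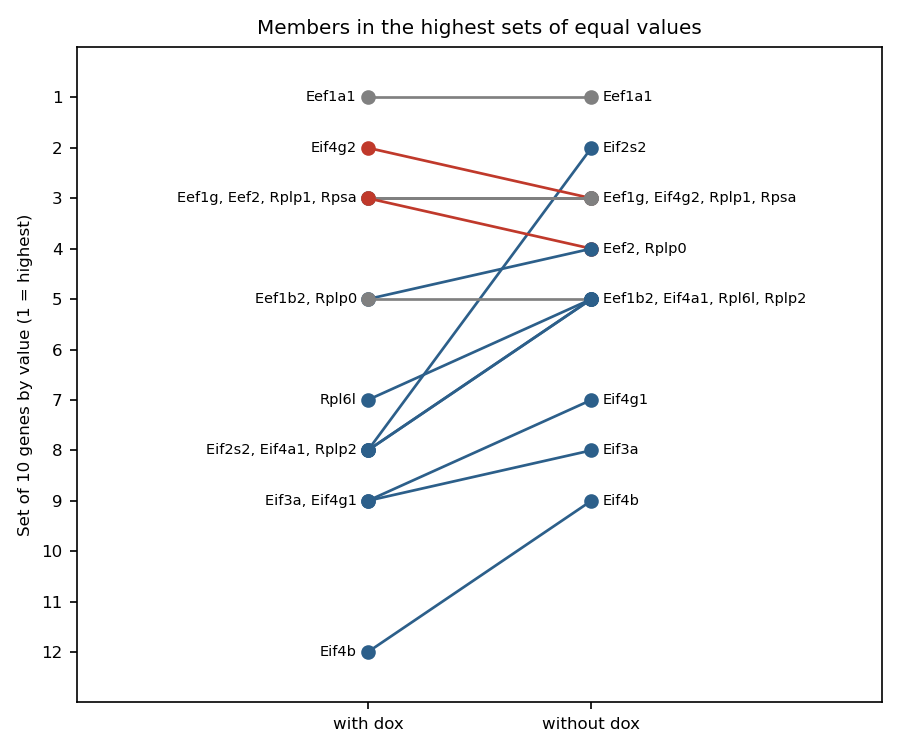
Set of 10 genes, counted from 1 at the highest value, in which each of 15 members lay with dox (left) and without dox (right), with a line for each member. Grey lines are the 5 members in the same set, red lines the members in a higher set with dox (Eif4g2, Eef2) and blue lines those in a lower set with dox, among them Eif2s2 in set 8 with dox and set 2 without.

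Transcript length moved with the ratio. Across all 8472 measured genes with an annotated length, longer genes had higher log2 ratios (Spearman rho 0.27), and across the 64 measured members rho was 0.38. Both are descriptions across genes, which are not independent and come from the same 2 libraries. The members had a median longest transcript of 2791 nt, against 3566 nt for all measured genes with a length, and at their lengths the trend of all genes had a median of −0.16. The members past 2-fold upward were long, at 8134 nt for Eif4g3 and 6580 nt for Eef2k. The part of length in the smaller values of the members was not tested beyond this removal of the trend. After it the ratio of Eif4g3 was 1.55, that of Eif2s2 −1.18 and that of Eef2kmt −1.28.

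**Figure D5:**
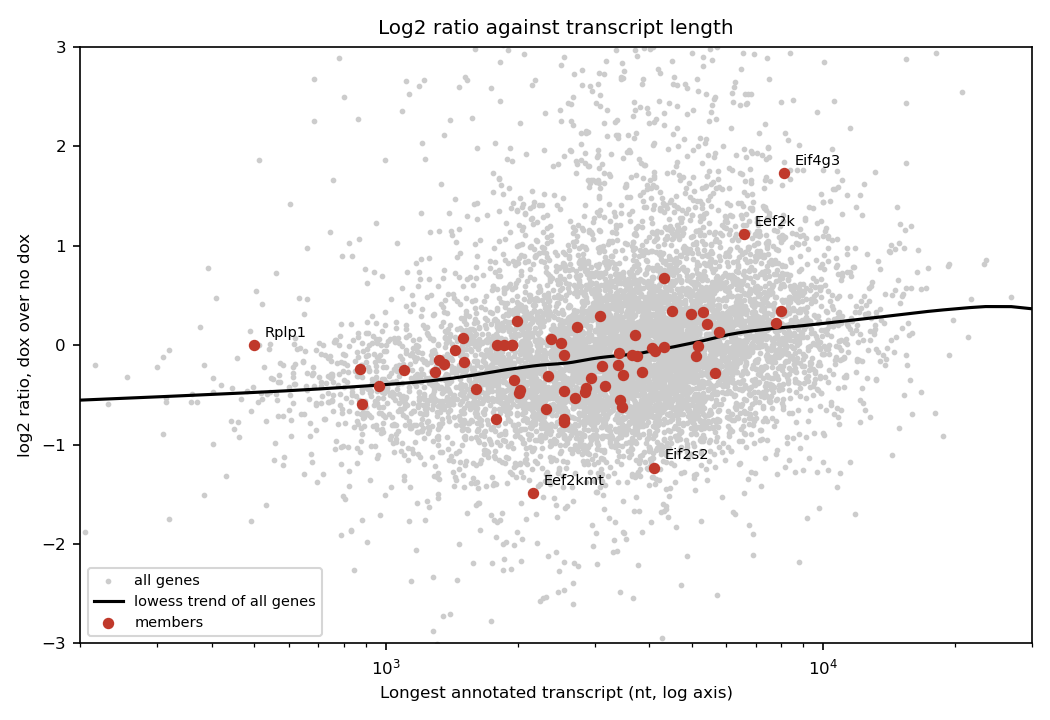
Log2 ratio of dox over no dox against the longest annotated transcript in nucleotides (log axis) for all measured genes (grey) with their lowess trend (black) and the 64 measured members (red). The trend climbs with length, and 33 members lie above it and 31 below, with Eif4g3 and Eef2k above it at long lengths and Eif2s2 and Eef2kmt below it.

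Other genes of the translation pathway were also mostly within 2-fold, 44 of 47 measured. Of 59 symbols listed, 50 were rows of the table and 47 were measured, of which 1 was higher with dox at 2-fold, Pabpc1, and 2 lower, with 9.23% and 5.49% called over all genes. The lower ones were Pelo, which encodes a ribosome rescue factor, at 19 with dox and 66 without, and Rhebl1, of a small GTPase related to the mTORC1 activator Rheb, at 15 with dox and 66 without. Both were below the floor with dox, so they were measured through the library without dox alone. A pseudocount of 50 gave log2 ratios of −0.75 for Pelo and −0.84 for Rhebl1, within 2-fold. The list median was −0.12. Among ribosomal proteins outside the naming rule, Rack1, of the small subunit scaffold, stood at 6782 in both libraries, and Fau, of a small subunit fusion, at 234 with dox and 294 without. Naca and Btf3, which encode partners in the nascent chain complex, stood at 2157 with dox and 3579 without and at 1365 with dox and 2223 without. Termination factor genes were level, with Etf1 at 987 with dox and 1025 without and Gspt1 at 732 in both. In the mTORC1 group the kinase gene Mtor stood at 212 with dox and 186 without and Rptor at 230 with dox and 198 without. Mlst8, at 118 with dox and 177 without, and Akt1s1, at 122 with dox and 190 without, had smaller values with dox. Of the 11 measured genes of this group 5 were larger with dox and 6 smaller. After removal of the length trend 3 of them were on the larger side and 8 on the smaller. Of 6 measured genes of hypusine and diphthamide synthesis 5 had smaller values with dox, with a median of −0.45. With the length trend removed 4 were on the smaller side and 2 on the larger, with a median of −0.22.

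The cultures carried ES cell markers in both libraries. All 10 markers listed were at 129 or more with dox and at 590 or more without, and their summed value was 11431 with dox and 18482 without, with 9 of the 10 smaller with dox. Of 10 fibroblast markers only Fn1, which ES cells also express, reached the floor in either library, and the other 9 summed to 80 with dox and 33 without, with Dcn and Lum at 0 in both. The 5 blood and endothelial markers found summed to 381 with dox and 233 without, with Csf1r at 111 with dox and 1 without, Cd68 at 96 with dox and 19 without and Ptprc at 19 with dox and 0 without. The other 2 were smaller with dox, Pecam1 at 152 with dox and 205 without and Kdr at 3 with dox and 8 without. In bulk RNA fewer cells of a type and less RNA per cell cannot be told apart. The part of these markers in the results above was not tested.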

How the data were processed

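Total RNA of 2 suspension cultures was sequenced, 1 library with dox and 1 without, at 36 h by their labels, and the agent label set the groups. Per the submitters' processing notes reads were handled with bcl2fastq, Bowtie2 and RSEM against mm10. Their versions, annotation, strand setting, normalization and gene filter are not given in the sources used. The values the authors deposited are handled as a score: whole numbers that were normalized and rounded, since the quartiles were 14, 62 and 184 with dox as well as without, and 75.5% of sorted positions were equal (tolerance 0). They are not read counts, depth is unknown, and no count model was used. The column sums of 2709923 with dox and 2704318 without are not depths. Columns of other samples left unused numbered 0.

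After 10 was added to each value, the log2 ratio was taken with dox over without. Genes entered where the larger value was at least 50, and were called at 2-fold. Symbols of all 69 members matched GENCODE M21 on GRCm38, the assembly of mm10, which gave coordinates and the longest transcript of any type. The length trend used that longest transcript, coding or not, and was removed by lowess (fraction 0.3). Windows of 75 bases were sought on both strands in transcripts of other genes. They came from each member's longest protein-coding transcript, or its longest transcript where it had no coding one, which can be shorter than that used for the trend. Of the members 53 matched the RefSeq promoter table, and the others are named only. Sets were formed by sorting each library's values and taking 10 genes at a time. Members, roles, lists and alternatives were chosen with earlier results of these data known, and the roles of the ribosomal protein rows were set after the rows were seen. Genes named were Jun, members past 2-fold, the 10 highest and 10 lowest ratios among members with a larger value of at least 250, paralogue pairs, the 2 members with the largest values per role, members nearest to 2-fold, and other translation genes past 2-fold or with the largest values. The rest of the members and a few genes of the other lists were named after their values were seen, so that every member is accounted for. Only the ratio and the 2-fold call were tested on simulated counts with known changes. Those counts had neither the fixed sets nor the normalized scale of these values. The length trend, windows, sets and motif search were not part of that simulation. Tools were matplotlib 3.10.9, statsmodels 0.14.6, scipy 1.17.1, pandas 2.3.3 and numpy 2.4.6 under Python 3.11.15.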

Additional observations from a re-analysis of the deposited data

How the results depend on the processing

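No paired analysis was possible because each group has 1 library and no test was made. The counts of members past 2-fold rest on 4 genes and moved under some settings. With a pseudocount of 50, 1 member was higher with dox (Eif4g3) and 1 lower (Eif2s2). With a floor of 250, 0 were higher and 1 lower, and with values of 5000 or more left out 1 was lower. With the length trend removed 1 was higher and 2 were lower. At 1.5-fold 8 were lower, and at 4-fold 0 were higher and 0 lower. A median was taken as moved where it shifted by over 0.1. With the length trend removed the median log2 ratio was 0.022 for all members, 0.17 for the large subunit rows, 0.24 for Rpsa, −0.0059 for initiation factors, 0.24 for elongation factors and −0.050 for eIF3. With values of 5000 or more left out the median of elongation factors was −0.53, since Eef1a1, Eef1g and Eef2 leave it. A pseudocount of 1, no floor and centring on the median of all genes kept these counts at 2 higher and 2 lower and shifted none of these medians by over 0.1. Leaving out members with at least 50% shared windows, chosen after seeing the data, left 59 measured members, with 2 higher and 2 lower and a median of −0.15; it was not run for the medians by role. Centring put 28 members on the larger side and 36 on the smaller. The depth of the libraries is unknown, so no limit from counting can be given.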
